A study of Homo sapiens with 2 samples.

Results

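The genes described here encode the subunits, assembly factors, activators and inhibitor of the proteasome. They were taken by name alone: gene identifiers in both count files were mapped to symbols, and symbols of the series PSMA to PSMG followed by a number were kept together with SEM1, ADRM1 and POMP. This gave 51 genes of 60664 in the files. RNA came from untreated, wild-type HEK293T cells, an established human line derived from embryonic kidney cells transformed with adenovirus DNA and carrying the SV40 large T antigen, so both libraries come from a transformed, dividing line and not from kidney tissue. The single group holds 2 libraries, the design has no contrast, and the source and cell line entries of replicate 2 read HEK294T while its title, which was followed, reads HEK293T. Errors written with ± are the SD of both libraries (n = 2), and the labels do not say whether these came from separate cultures, so the spread may be technical.

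The proteasome degrades proteins tagged with ubiquitin. Its barrel, the 20S core, stacks rings of alpha subunits, which form the gate, around rings of beta subunits, of which PSMB5, PSMB6 and PSMB7 carry the cutting sites. The 19S regulatory particle caps the barrel to make the 26S proteasome: its base unfolds substrates with a ring of ATPases, and its lid removes ubiquitin. After interferon gamma, and constantly in many immune cells, PSMB8, PSMB9 and PSMB10 replace the constitutive catalytic subunits and give the immunoproteasome, which favours peptides suited to antigen presentation.

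The libraries held 18011638 and 18575058 assigned counts, at which the limit of 3 counts taken for a count of 0 is 0.167 and 0.162 CPM (a count scaled by its library's total). All 5 genes listed as known to be carried by these cells were detected, among them UCHL1 at 334 ± 5.81 TPM (a level per length, from the exon length in the files) and VIM at 218 ± 50.4 TPM. Exons shared with neighbouring genes make some members uncertain, since it is not stated how reads on them were counted. Of the 51 genes, 5 share 25% or more of their exonic bases with other genes: PSMC1 (76.1%), PSMB10 (39.4%), PSMD7 (31.2%), PSMA2 (29.7%) and PSMA1 (26.7%). The same-strand neighbour of PSMA1, ENSG00000256206, had 2893 and 3214 counts beside 3137 and 3243 for PSMA1 itself. Counts were also close for that of PSMA2 (5264 and 5863 beside 5043 and 5617). Below the 25% limit, so were those of PSMA6 (3891 and 3954 beside 3602 and 3567) and PSMD9 (1619 and 1746 beside 1733 and 1819). PMPCB, the same-strand neighbour of PSMC2, had 2120 and 1864 counts beside 2180 and 2302, though only 1.30% of the exonic bases of PSMC2 are shared with it. Same-strand neighbours of PSMB9, PSME2 and PSMF1 had counts far from those of the member.

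Nearly all proteasome genes were expressed, and the exceptions were specific members. At 1 CPM or more in both libraries, 46 of 51 were detected, against 65.9% of all 19890 protein-coding genes. The 5 that were not are the immunoproteasome subunits PSMB8 and PSMB9, the tissue-restricted core subunits PSMA8 and PSMB11, and the assembly chaperone PSMD5. Every member of the constitutive 26S proteasome, 14 core and 19 regulatory subunits, was detected. Together the 51 genes held 0.801% of the counts in replicate 1 (95% interval 0.797% to 0.805%, exact binomial) and 0.784% in replicate 2 (0.780% to 0.788%), a mean of 0.793% ± 0.0118. Intervals here describe counting error alone, because no molecular identifiers were used and reads may repeat a molecule. The median member stood at 58.7 ± 0.537 TPM, against 2.86 ± 0.296 TPM for all protein-coding genes.

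**Figure D1:**
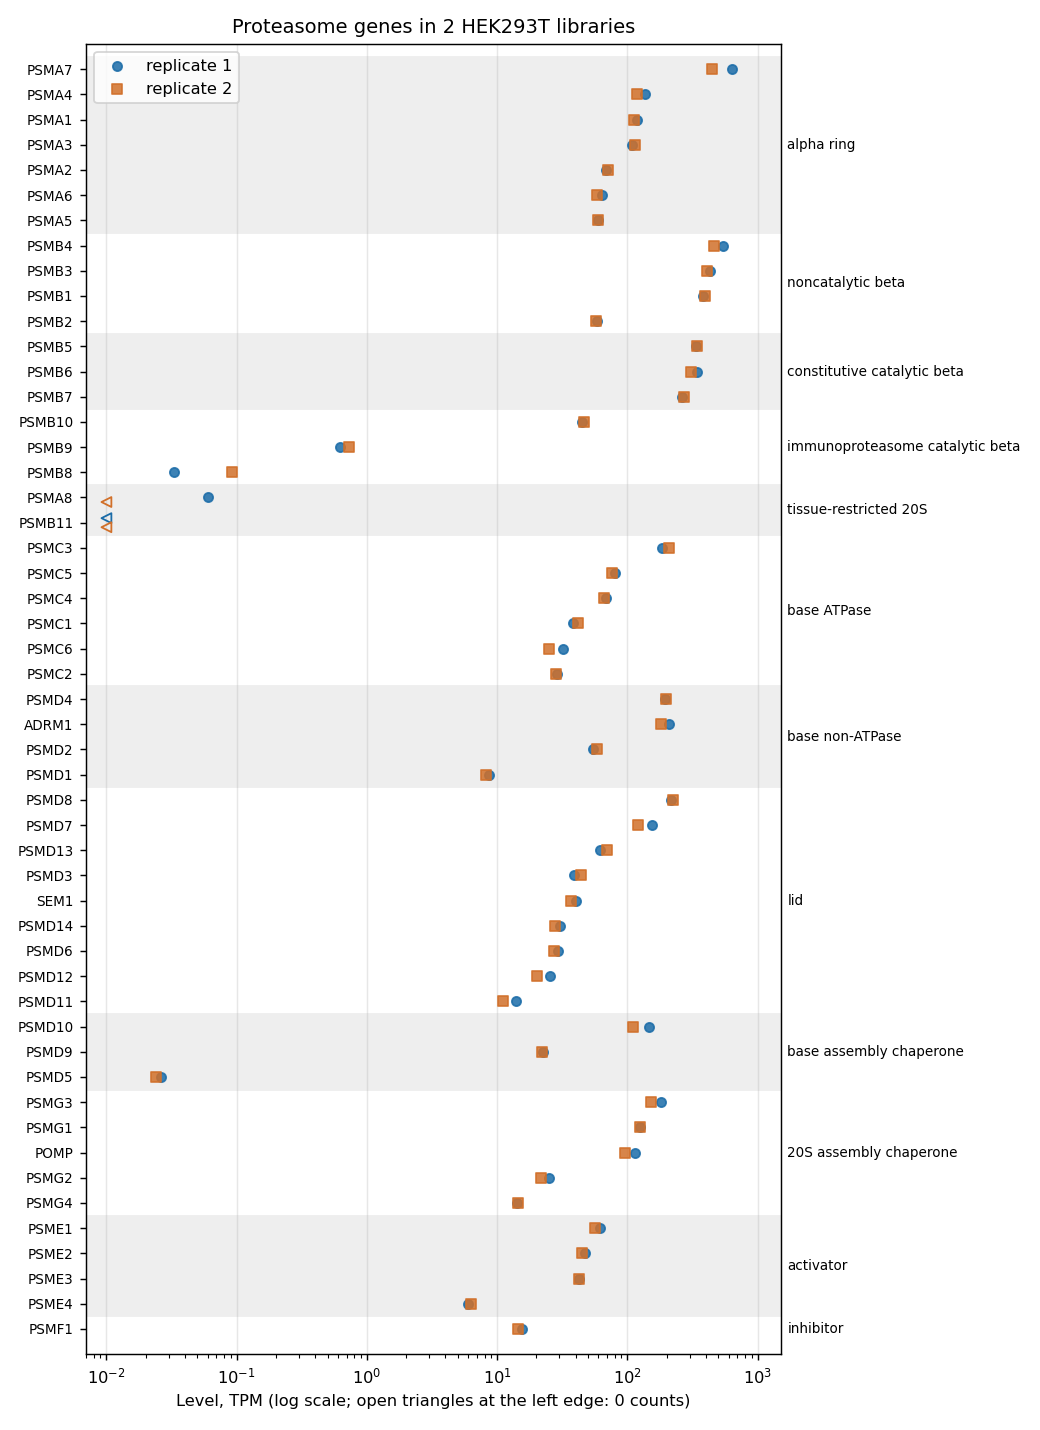
Level of each of the 51 proteasome genes in TPM on a log scale, grouped by role, with circles for replicate 1 and squares for replicate 2; open triangles at the left edge are 0 counts. All constitutive subunits lie above 8 TPM, while PSMB8, PSMB9, PSMA8, PSMB11 and PSMD5 lie below 1 TPM.

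The alpha subunits, which build the outer rings of the core, had a median of 111 ± 3.38 TPM. PSMA7 stood apart from the other 6: it had 634 TPM in replicate 1 and 444 in replicate 2, while PSMA4 followed with 136 and 119 TPM. PSMA1 (118 and 113 TPM) and PSMA3 (108 and 114 TPM) came next and overlapped in their libraries. PSMA2 (69.0 and 71.4 TPM), PSMA6 (63.5 and 58.4 TPM) and PSMA5 (59.1 and 59.0 TPM) were lowest, and the values of PSMA6 and PSMA5 overlapped. This order depends on the length divisor: by principal transcript length PSMA6 had 338 and 320 TPM and PSMA5 76.6 and 78.7. Without length correction PSMA4 reached 442 ± 28.2 CPM, beside 466 ± 102 CPM for PSMA7, and the lowest alpha gene, PSMA5, had 168 ± 4.85 CPM.

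PSMA8, on chromosome 18 from 26133852 to 26193355, encodes an alternative alpha subunit that takes the place of PSMA7 in male germ cells. It had 1 count in replicate 1 and 0 in replicate 2, under that limit of 3 counts, while PSMA7 had 9686 and 7315 counts. PSMB11, which replaces PSMB5 in the thymus cortex, had 0 counts in both libraries. Both germ-cell and thymus forms of the core were therefore not detectable at this depth.

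The noncatalytic beta subunits had a median of 405 ± 1.27 TPM. PSMB4, with 10031 counts in replicate 1 and 9304 in replicate 2, had 541 and 466 TPM. PSMB3 had 431 and 411 TPM and PSMB1 380 and 397 TPM. This order turned in CPM, where PSMB1 had 409 and 445 and PSMB3 244 and 243, and by principal transcript length, where PSMB1 had 794 ± 40.2 TPM and PSMB3 544 ± 6.71. PSMB2 was the exception at 58.5 and 57.3 TPM. It was also lowest of the core subunits without length correction, at 130 ± 1.97 CPM against 243 ± 0.662 CPM for PSMB3.

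The 3 constitutive catalytic subunits were expressed at similar levels. PSMB5, which carries the chymotrypsin-like site, lies on chromosome 14 from 23016543 to 23035230 and had 335 and 344 TPM from 4529 and 5000 counts. PSMB6, the caspase-like subunit on chromosome 17 from 4796144 to 4798502, had 345 and 310 TPM from 4351 and 4211 counts. PSMB7, the trypsin-like subunit on chromosome 9 from 124353465 to 124415444, had 262 and 270 TPM from 4080 and 4541 counts. The highest mean exceeded the lowest 1.28-fold in TPM, 1.11-fold in CPM and 1.37-fold in TPM by the length of the principal coding transcript in GENCODE 29. Their order depends on the divisor: in TPM PSMB5 and PSMB6 overlapped above PSMB7, while by principal length PSMB5 was lowest, at 338 and 357 TPM. In CPM PSMB6 and PSMB7 overlapped.

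Their immunoproteasome counterparts were far lower, and unequally so. PSMB8, the counterpart of PSMB5, lies on chromosome 6 from 32840717 to 32844679 and had 1 and 3 counts. PSMB9, the counterpart of PSMB6 on the same chromosome from 32844136 to 32859851, had 18 and 23 counts, or 0.999 and 1.24 CPM, and so missed the detection threshold by replicate 1 alone. PSMB10, the counterpart of PSMB7, lies on chromosome 16 from 67934506 to 67936864 and had 632 and 706 counts, or 44.6 and 46.2 TPM. PSMB10 thus held 97.1% and 96.4% of all immunoproteasome counts in replicates 1 and 2. In both libraries PSMB8 was below PSMB9 and PSMB9 below PSMB10.

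Summed over the 3 subunits, the immunoproteasome genes stood at 45.2 and 47.0 TPM and the constitutive ones at 942 and 924 TPM. The log2 ratio of immunoproteasome to constitutive was -4.38 in replicate 1 and -4.30 in replicate 2, a mean of -4.34 ± 0.0600, and the immunoproteasome share of the summed TPM was 4.71% ± 0.187. PSMB7 exceeded PSMB10 by 5.87-fold in replicate 1 (counting interval 5.40 to 6.39) and by 5.85-fold in replicate 2 (5.40 to 6.34). PSMB6 exceeded PSMB9 by 558-fold (352 to 942) and 422-fold (281 to 667). For PSMB5 over PSMB8 the ratio was 3744 in replicate 2, with an interval from 1281 to 18163, and with a single count of PSMB8 in replicate 1 it could be placed only between 1825 and 401975. A single group allows no test between samples, so these ratios are set against the replicate spread alone, which is smaller than each of them.

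The size of the summed ratio rests on PSMB10. Without PSMB10 the log2 ratio became -10.3 ± 0.261, with its counterpart PSMB7 kept in the constitutive sum. Exonic bases that PSMB10 shares belong to ENSG00000261884, a gene on the same strand with 695 and 737 counts. Whether some PSMB10 counts come from transcripts of that neighbour was not tested. PSMB8 and PSMB9 share 17.3% and 5.21% of their exonic bases with PSMB8-AS1, which had 97 and 85 counts.

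**Figure D2:**
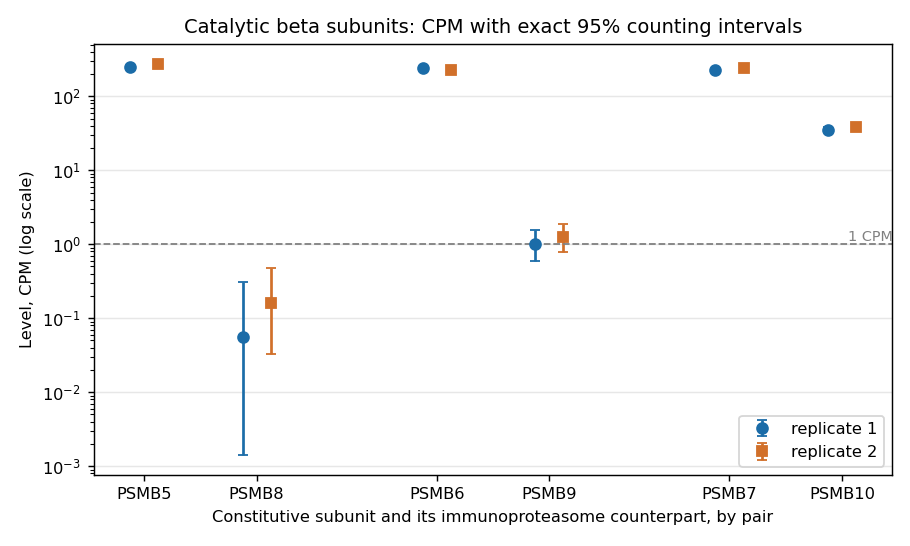
Level in CPM on a log scale of each constitutive catalytic subunit beside its immunoproteasome counterpart, with circles for replicate 1, squares for replicate 2 and bars for exact 95% binomial counting intervals; the dashed line marks 1 CPM. PSMB5, PSMB6 and PSMB7 lie between 227 and 269 CPM in both libraries, PSMB10 at 35.1 and 38.0, PSMB9 near the line and PSMB8 below it.

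Genes that carry the interferon gamma signal were present, but several at low levels. The receptor chains IFNGR1 and IFNGR2 had 34.3 ± 0.990 and 44.7 ± 5.83 TPM and were the highest of the 13 genes listed. The transcription factor IRF1, through which interferon gamma raises the immunoproteasome genes, had 1.22 TPM in each library. JAK2, a kinase bound to the receptor, had 51 and 33 counts. NLRC5, an activator of antigen presentation genes, had 15 counts in each library and was the only one of the 13 not detected. TAP1, a peptide transporter gene whose start lies head to head with that of PSMB9 at 488 bases, had 336 and 340 counts, against 18 and 23 for PSMB9. Of the 10 blood and immune markers listed, 3 reached 1 CPM in both libraries, with CIITA (3.30 ± 0.252 TPM) and CD74 (2.87 ± 0.469 TPM) highest, and CD3D, CD3E and MS4A1 had 0 counts. CIITA was not near the floor in counts, with 565 and 678, or 33.9 ± 3.63 CPM. Its deposited length is 20763 bases, of which 23.4% are shared with other genes. The summed level of the 10 markers was 10.1 and 9.15 TPM, and PTPRC, which marks nearly all white blood cells, had 0 and 1 counts.

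Promoter windows were read to see which letters known to bind interferon-induced factors lie at these genes. Windows of 300 bases around the start (250 upstream, 50 downstream) were available from RefSeq on GRCh38.p14 for 45 of the 51 genes, and are not given for PSMA7, PSMB1, PSMB6, PSMB7, PSMD4 and PSMG3. The core bound by interferon regulatory factors, GAAA followed by any 2 bases and a further GAAA, was searched on both strands and found in the windows of 7 of the 45 genes, against 4.38% of all 27305 genes and 4.16% of protein-coding genes with a window. The 7 matches are shown with 10 bases on each side, on the strand of the gene, with the motif or its reverse complement in capitals.

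PSMB8 (chr6:32844032-32844061, minus strand): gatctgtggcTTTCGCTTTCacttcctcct
PSMB10 (chr16:67936852-67936881, minus strand): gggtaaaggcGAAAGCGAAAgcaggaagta
PSME1 (chr14:24136189-24136218, plus strand): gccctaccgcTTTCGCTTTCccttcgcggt
PSME2 (chr14:24146619-24146648, minus strand): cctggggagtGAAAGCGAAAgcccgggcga
PSMG4 (chr6:3258904-3258933, plus strand): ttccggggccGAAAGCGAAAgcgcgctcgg
PSMB4 (chr1:151399495-151399524, plus strand): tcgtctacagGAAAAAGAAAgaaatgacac
PSMA4 (chr15:78540155-78540184, plus strand): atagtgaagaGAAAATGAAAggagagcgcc

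At PSMB8, PSMB10, PSME1, PSME2 and PSMG4 the match is the same 10 letters, GAAAGCGAAA, on either strand. These letters occur in the windows of 0.125% of all genes and 0.177% of protein-coding genes. The exact letters were chosen after the 7 matches were seen, so the shares are a description and no test was made. The genes that carry it ranged from 1 and 3 counts (PSMB8) to 1472 and 1498 counts (PSME2). PSMB9 and PSMB5 had no match in their windows, which says only that these letters are not there. STAT dimer sites (TTCNNNGAA, both strands) matched in 8 of the 45 genes, PSMB8 and PSMB5 among them, against 9.38% of all genes and 8.98% of protein-coding genes.

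The activators cap the core in place of the 19S particle. PSME1 and PSME2, which together form the interferon-inducible cap, had 62.2 and 56.8 TPM and 47.1 and 44.5 TPM. Both lie on chromosome 14, PSME1 from 24136163 to 24138967 and PSME2 from 24143362 to 24147570, and unlike PSMB8 and PSMB9 both were plainly expressed. PSME3, which forms the nuclear cap, had 42.7 TPM in each library, below PSME2. PSME4, the activator linked to histone degradation, was lowest at 5.95 and 6.30 TPM, and also lowest in CPM at 31.5 ± 2.25. PSMF1, an inhibitor of the core in the test tube, had 15.6 and 14.4 TPM.

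Among the 19S subunits the ATPases, which thread substrates into the core, had a median of 53.5 ± 0.326 TPM. PSMC3 led with 185 and 208 TPM, followed by PSMC5 (80.3 and 76.2 TPM), PSMC4 (68.0 and 65.7 TPM) and PSMC1 (38.5 and 41.8 TPM). PSMC2 (28.9 and 28.4 TPM) and PSMC6 (32.3 and 25.1 TPM) were lowest and overlapped. In CPM the 6 ATPase genes lay within 2.63-fold, from 84.4 ± 0.520 for PSMC4 to 222 ± 24.9 for PSMC3. PSMC1 is the uncertain member, since 76.1% of its exonic bases are shared, all with the opposite-strand gene NRDE2 at 1607 and 1644 counts.

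Of the other base subunits, the ubiquitin receptors PSMD4 (194 and 198 TPM) and ADRM1 (209 and 180 TPM) overlapped in their libraries in TPM from the deposited lengths. They were apart on the other scales, with PSMD4 at 284 and 302 CPM and ADRM1 at 217 and 195 CPM, and with 375 ± 12.9 and 233 ± 19.8 TPM by principal transcript length. The scaffold subunits PSMD2 and PSMD1 were lower, PSMD2 at 54.3 and 58.9 TPM and PSMD1 at 8.63 and 8.28 TPM, the lowest of all constitutive subunits. PSMD1 has the longest deposited exon length of the 51 genes, 15795 bases, and with 66.1 ± 0.107 CPM it was above the lid subunit PSMD11 (43.8 ± 6.25 CPM) on the scale without length correction.

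The lid had a median of 37.8 ± 1.48 TPM. PSMD8 was highest with 216 and 222 TPM, and PSMD7 followed with 155 and 121. PSMD14, the enzyme that removes ubiquitin chains, had 30.3 and 27.8 TPM and PSMD6 29.3 and 27.3. PSMD6 was above PSMD14 by principal transcript length, at 153 ± 4.35 against 92.7 ± 3.73 TPM. PSMD11 was lowest, with 48.2 and 39.4 CPM, and PSMD12 followed with 65.6 and 54.9 CPM. Both were also the lowest of the lid in TPM. SEM1, a small acidic subunit, had 40.7 and 36.7 TPM over a deposited exon length of 11490 bases, but in CPM it was second in the lid, at 220 ± 9.04 after PSMD8 at 335 ± 17.1.

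The core was set against the regulatory particle within each library. Core subunits had a median of 197 ± 2.94 TPM and 19S subunits of 42.4 ± 2.46 TPM. On the log2 scale the difference was 2.22 in replicate 1 and 2.02 in replicate 2, a mean of 2.12 ± 0.135, larger than the spread between libraries. In CPM the difference was 0.91 ± 0.00249 log2, from medians of 243 ± 0.695 and 129 ± 0.592 CPM, so less of it remained without length correction. Within the particles the genes varied less than detected protein-coding genes at large: the SD of log2 CPM was 0.63 over the 14 core subunits and 0.77 over the 19 regulatory subunits, against 1.98 over 13112 detected protein-coding genes. In TPM these SDs were 1.24, 1.37 and 2.31. Such SDs run over genes and not over replicates, and describe the genes alone.

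PSMD5 is the member whose level parts most from its role group. The base of the 19S particle is assembled with dedicated chaperones, among them PSMD5, PSMD9 and PSMD10. PSMD10 had 147 and 110 TPM and PSMD9 22.6 and 22.1 TPM, while PSMD5, on chromosome 9 from 120815496 to 120842951, had 1 count in each library over 4399 exonic bases. That is 0.0555 and 0.0538 CPM, with 95% counting intervals up to 0.309 and 0.300 CPM. No exonic base of PSMD5 is shared with another gene. PAAF1, a further chaperone of the base, was present at 262 and 288 counts. PSMD5 was singled out after its values were seen, and its upstream sequence is shown because of its low counts, as the 188 bases that GENCODE 29 does not place in an untranslated region, with a match to TGACNNNGC in capitals.

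PSMD5 (chr9:120842985-120843172, minus strand): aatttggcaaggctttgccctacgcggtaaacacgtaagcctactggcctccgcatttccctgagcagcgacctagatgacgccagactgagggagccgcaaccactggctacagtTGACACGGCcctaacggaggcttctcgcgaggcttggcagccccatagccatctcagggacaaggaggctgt

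The full window of PSMD5 held 19 CpG dinucleotides and a ratio of observed to expected CpG of 0.654. The median over the windows of all 45 genes was 22 CpGs and 0.780, and over protein-coding genes 21 and 0.737.

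The chaperones of the core itself were all expressed. PSMG3 had 182 and 151 TPM, PSMG1 124 and 125 TPM, and POMP, the maturation factor that is the first substrate of each new core, 114 and 96.0 TPM. PSMG2, the partner of PSMG1, had 23.4 ± 2.19 TPM from 601 and 567 counts, below PSMG1 also in CPM (31.9 ± 2.01 against 133 ± 5.14). PSMG4, the partner of PSMG3, had 14.3 and 14.4 TPM, but its deposited exon length of 10415 bases is far above the 838 of its principal transcript. By the length of the principal transcript it had 152 ± 3.99 TPM, beside 201 ± 22.4 for PSMG3.

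The length divisor was examined for all detected members, since the deposited length merges every annotated exon of a gene. With the length of the principal coding transcript in GENCODE 29, a divisor chosen after seeing the data, 24 of the 46 moved by over 1.5 times. The same count was not made over all genes, so it cannot be called particular to the members. Genes at large shifted too: the median over detected protein-coding genes went from 8.46 ± 0.657 to 11.4 ± 0.703 TPM. The change ran from 0.854-fold for PSMG1 to 10.6-fold for PSMG4. TPM by principal length was scaled to the total over genes that have such a transcript. Each change therefore also holds a factor common to all members, as seen at PSMG1, whose lengths were 2152 and 2154 bases. PSMA2 rose from 70.2 ± 1.67 to 338 ± 15.2 TPM, PSMA6 from 60.9 ± 3.61 to 329 ± 12.6 TPM and SEM1 from 38.7 ± 2.78 to 289 ± 14.7 TPM. PSMB4 then led all members at 948 ± 80.1 TPM, above PSMA7 at 809 ± 184. Values of the 2 genes overlapped across the libraries. Within each library PSMB4 was higher, at 1005 against 939 TPM in replicate 1 and 891 against 678 in replicate 2. PSME4 (7.66 ± 0.474), PSMD11 (18.5 ± 2.81) and PSMD12 (23.6 ± 3.20 TPM) were the lowest detected members under this divisor. PSME3 rose to 188 ± 3.92 TPM, above PSME1 and PSME2, so the order of the activators depends on the divisor.

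**Figure D3:**
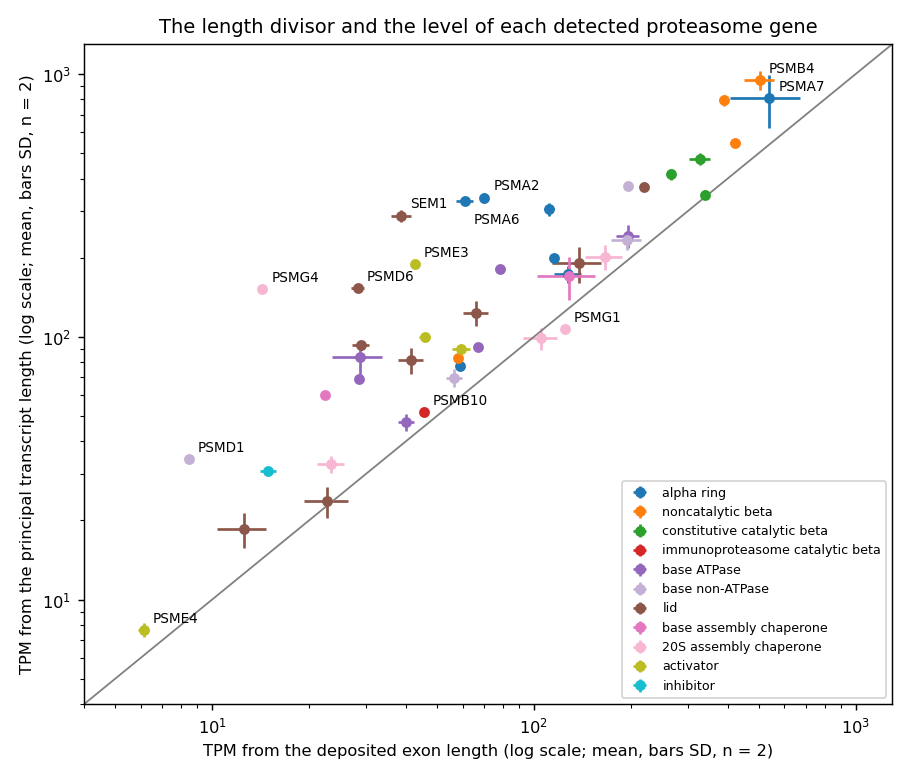
Mean TPM of the 46 detected proteasome genes computed from the deposited exon length (horizontal, log scale) and from the principal transcript length (vertical, log scale), with bars for the SD over 2 libraries and colours for roles; the diagonal marks equal values. PSMG4, SEM1, PSMA6, PSMD6 and PSMA2 lie furthest above the diagonal.

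The 2 libraries were then compared gene by gene. For each gene whose mean count reached 50, which 46 of the 51 did, replicate 2 was divided by replicate 1 after TMM scaling and the log2 taken. None passed 1 log2, against 2.06% of all 14704 genes, of which 0.143% were higher and 1.92% lower in replicate 2. None of 46 is near so small a share, and the 14704 include genes with mean counts from 50, while the members start at 577. Past 0.5 log2 were 0 members, against 5.14% of the 5508 genes within the members' range of mean counts. The members' ratios ran from -0.42 to 0.28 with a median size of 0.12, against 0.15 over the 5508 genes within the same range of mean counts. PSMA7 moved most, from 538 to 394 CPM (-0.42). PSMD10 (-0.33), PSMC6 (-0.27), PSMD7 (-0.27) and PSMD11 (-0.26) were also lower in replicate 2, and PSMD3 (0.28), PSMD13 (0.27) and PSMC3 (0.26) were higher. These 8 were the only members past 0.25 log2, or 17.4% of 46, against 25.5% of the genes in the same range of counts. That difference was not tested. Over the genes in that range of counts, ratios rose with the GC content of the principal transcript (rank correlation 0.503, 5004 genes). Among the 46 members the correlation was 0.230. Whether GC content bears on the members' shifts was not tested. Each ratio compares a pair of libraries, so it has no replicate check of its own.

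**Figure D4:**
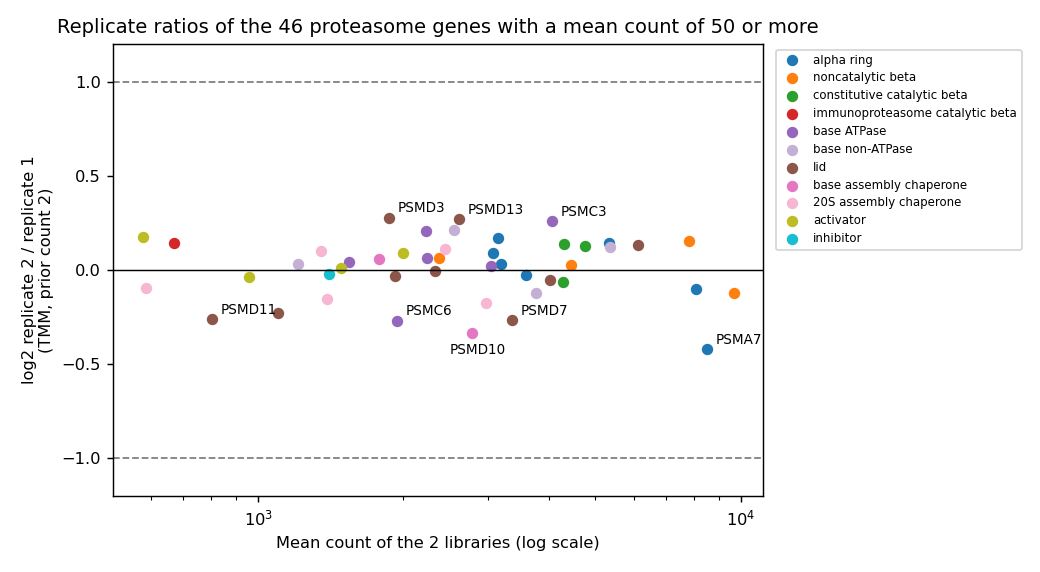
log2 ratio of replicate 2 to replicate 1 for the 46 proteasome genes that reached a mean count of 50 (vertical), against their mean count on a log scale (horizontal), coloured by role; dashed lines mark 1 log2 in each direction. All points lie between the lines, and PSMA7 is lowest at -0.42.

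Copies of the genes took few reads. The annotation holds 46 pseudogenes named after members, of which 9 had any count, 35 in replicate 1 and 51 in replicate 2 against 144265 and 145676 for the members. PSMC1P1 had 26 and 40 of these, SEM1P1 3 and 6, and PSMC1P5 2 in each library. How reads that match both a gene and its copy were counted is not stated, so members with such copies are uncertain to that extent.

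Several members share a start region with another gene. Starts of protein-coding genes within 1000 bases, head to head, were found for 9 of the 45 genes with a window (20.0%), against 12.3% of 15842 protein-coding genes. PSMD13 and SIRT3 start 45 bases apart, PSMC5 and FTSJ3 58, PSME4 and ACYP2 120, and PSMA2 and MRPL32 202. The others are PSMD9 with HPD (179 bases), PSMD10 with ATG4A (236), PSME2 with RNF31 (265), PSMG2 with CEP76 (265) and PSMB9 with TAP1.

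Genes listed under transcriptional control of the proteasome genes were all expressed, though the list also holds factors with other roles, such as AKIRIN2. Of the 11 listed, 11 were detected, with a median of 11.2 ± 0.451 TPM. NFE2L1, which is cleaved and sent to the nucleus when proteasomes are short, had 22.1 and 24.5 TPM, and its relative NFE2L2 had 17.2 and 11.5 TPM. DDI2, the protease that cleaves NFE2L1, had 3.56 and 3.43 TPM, and NGLY1, which removes its sugars, 10.8 in each library. AKIRIN2, which brings proteasomes into the nucleus, was the highest of this list at 43.9 ± 1.67 TPM, and MAFF the lowest at 1.35 ± 0.152. The core letters bound by NFE2L1 and its relatives, TGACNNNGC on either strand, lay in the windows of 17 of the 45 genes (37.8%), against 16.1% of all genes and 17.9% of protein-coding genes. The first match in each window is shown for the 5 of the 17 with the highest TPM from the deposited lengths, on the strand of the gene, with the motif or its reverse complement in capitals. On the other scales SEM1, also 1 of the 17, was above ADRM1, PSMC5 and PSMG1, and by principal transcript length also above PSMA4. SEM1 had 220 ± 9.04 CPM and 289 ± 14.7 TPM by principal length, against 133 ± 5.14 CPM and 107 ± 3.10 TPM for PSMG1. On both of those scales SEM1 would take the place of PSMG1 among the 5.

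PSMB3 (chr17:38752627-38752655, plus strand): gcctccgtttTGACTTTGCaaccaaacta
ADRM1 (chr20:62302749-62302777, plus strand): cgctcccctaTGACACAGCaacaataggg
PSMA4 (chr15:78540650-78540678, plus strand): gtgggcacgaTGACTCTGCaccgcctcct
PSMG1 (chr21:39183616-39183644, minus strand): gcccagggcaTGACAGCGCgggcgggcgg
PSMC5 (chr17:63827654-63827682, plus strand): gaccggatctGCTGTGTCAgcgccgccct

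PSMD5 also carries such a match, 1 of the 17, as does PSMB9. CCAAT boxes (CCAAT, both strands) lay in the windows of 22 of the 45 genes (48.9%), against 39.7% of all genes and 42.1% of protein-coding genes. A match is a description of letters and not evidence of binding.

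Transcripts of factors that work on or with the 26S proteasome were detected for 11 of 11 genes, with a median of 18.8 ± 0.348 TPM, below the 42.4 TPM of the 19S subunits. The deubiquitinating enzymes USP14 and UCHL5 had 22.6 ± 2.93 and 22.8 ± 4.82 TPM and did not differ beyond the spread. PITHD1 was highest at 54.5 ± 0.126 TPM. ECPAS, which holds core and cap together, had 10.1 ± 0.312 TPM, and PAAF1 was lowest at 3.83 ± 0.0554. Of 15 genes that make ubiquitin or deliver substrates, 14 were detected, with a median of 40.3 ± 6.18 TPM. The ubiquitin genes RPS27A (1883 ± 101 TPM) and UBB (1838 ± 72.1 TPM) led, UBA6, an activating enzyme, had 5.53 ± 1.28 TPM, and DDI1 had 0 counts in both libraries, while its relative DDI2 was detected.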

How the data were processed

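RNA-seq of untreated HEK293T cells gave 1 group of 2 libraries. Per the file headers, the authors deposited whole-number counts for each gene without normalization. Build GRCh38 and 3 tools stand in the submitters' processing notes: featureCounts 2.0.3, Trim Galore 0.6.7 and bcl2fastq 2.17. No source used here gives the aligner, the annotation release, or how strand and shared exons were treated. cDNA was primed with oligo(dT) and sheared, per the labels' protocols, so RNAs without a tail are under-represented.

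From the counts, CPM and TPM (deposited exon lengths) were computed here without scaling between libraries. Ratios came from edgeR 4.0.16 (R 4.3.3, prior count 2, TMM factors 1.01 and 0.989), with DESeq2 1.42.0 size factors as an alternative. The ratio code was also run on simulated counts with known changes and a fixed spread. That run bears on the code and not on the spread of these libraries. Of 60664 IDs, 60463 matched a symbol. Gene types and principal transcripts came from GENCODE 29, exon overlaps from bedtools 2.31.1, intervals from scipy 1.17.1 (exact binomial) and promoter windows from RefSeq. The last 30 bases of 53 of the 57 windows lie in a GENCODE transcript of the same gene. Promoter patterns were chosen after the files were seen. Besides the 5 described in the report, 4 more were searched on both strands. TGANNNNGC matched 66.7% of the 45 genes and 47.1% of all genes, CCGGAAG 35.6% and 12.2%, TATAAA 13.3% and 14.0%, and GGGCGG 66.7% and 48.3%. Over protein-coding genes the shares were 49.6%, 16.5%, 12.4% and 64.3% in that order. For GGGCGG and TATAAA the members were thus near the protein-coding share. No test between groups was possible.

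By rule, every member is named, with the 2 highest and 2 lowest genes of each other list by mean TPM, a set of regulators and the 3 pseudogenes with most counts. Some results on genes of these lists are not reported here. MS4A1, PTPRC and genes that overlap or adjoin a member were named after their values were seen. The members and lists were chosen with earlier results of these data known.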

Additional observations from a re-analysis of the deposited data

How the results depend on the processing

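The log2 ratio of immunoproteasome to constitutive catalytic subunits (-4.34) was -4.27 with CPM, -4.51 with the principal transcript length, -10.3 with the 5 members left out whose exons overlap other genes by 25% or more (PSMB10 drops out) and -4.31 with a pseudocount of 1 TPM, and ran from -4.38 to -4.30 when a replicate was left out. PSMB7 stayed in the constitutive sum when PSMB10 dropped out. The difference between core and regulatory particle (2.12 log2) was 0.91 with CPM, 1.89 with the principal transcript length, 2.79 without those 5 members and 2.09 with the pseudocount, and ran from 2.02 to 2.22 when a replicate was left out. The share of counts (0.793%) was 0.712% without those 5 and 0.793% with pseudogenes added, and ran from 0.784% to 0.801% when a replicate was left out. Detected members numbered 46 at 1 TPM and at 5 CPM, 47 at 10 counts (PSMB9 added), 41 without those 5, and 46 to 47 when a replicate was left out. No member passed 1 log2 under any of the 6 alternatives of scaling, count filter and prior count. The planned coding length from reference proteins was not run, since a protein table was not used here. The principal transcript length was chosen after seeing the data. No paired analysis was possible because the labels give a single group. Depth limits statements on PSMB8, PSMA8, PSMB11 and PSMD5, which had 3 counts or fewer in each library.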
